A study of Mus musculus with 6 samples.

Results

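The 10 NRF2 antioxidant response genes described here were picked by gene symbol out of 30315 genes measured, with no threshold on their values: Nfe2l2, Keap1, Gclc, Gclm, Slc7a11, Gpx4, Txnrd1, Srxn1, Nqo1 and Hmox1. All 10 were found in the table, once each. They were chosen with earlier results of these data known, so counts among them are described and not tested. The data were RNA-Seq of mouse primary renal tubular epithelial cells (TECs) of the C57BL/6 strain, which are cells taken from kidney tubules and grown in culture. Each of the 6 libraries came from cells under hypoxia/reoxygenation (H/R), which was 6 h in glucose-free medium at 1% oxygen and then 18 h in complete medium under normal conditions, so no library shows these genes without H/R. The cells of 3 libraries had been transfected 12 h before H/R with the small interfering RNA siSox9, which targets Sox9, and those of the other 3 with siNC as the control siRNA. The labels do not say whether the 3 libraries of a group came from separate animals or cultures, so p-values measure only the spread between these libraries, which may be technical.

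NRF2, the protein product of Nfe2l2, is the transcription factor that switches on antioxidant and detoxifying genes when a cell meets oxidants or electrophiles. In resting cells KEAP1 holds NRF2 and hands it to the CUL3 ubiquitin ligase for degradation. When cysteines of KEAP1 are modified, NRF2 escapes, pairs with a small MAF protein and binds antioxidant response elements near its target genes. The kidney tubule relies on this response after ischemia and reoxygenation, when oxidants are released.

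The values are FPKM, read numbers divided by exon length and by library depth, so that levels of different genes can be set side by side. The libraries were alike in depth, with 19488905 to 21017595 reads recovered per library from the steps of the FPKM values. Composition was less even, as the gene Gm23935 ranged from 748 FPKM in siNC replicate 1 to 19473 FPKM in siNC replicate 3. Sox9 itself fell to 8.87 ± 0.236 FPKM with siSox9 from 25.96 ± 0.496 FPKM with siNC (SD, n = 3 each). All 8 markers of tubule epithelium were at 1 FPKM or more, with Krt8 at 2089 FPKM in siNC, and 1 of them, Cdh16, rose (129.7 FPKM with siSox9 and 100.9 with siNC, limma adjusted p = 0.000307). Of the 5 proximal tubule markers, Lrp2 alone reached 1 FPKM, while Slc34a1 and Slc5a2 were at or near 0, and none of the 5 collecting duct and distal tubule markers reached 1 FPKM. Among 6 fibroblast and smooth muscle markers, Acta2 was high in both groups (686 FPKM with siSox9 and 727 FPKM with siNC) and Col1a1 was at 5.79 and 6.78 FPKM, while the others were under 1 FPKM. Of the 4 endothelial markers, Cdh5 alone had a mean of at least 1 FPKM over the 6 libraries, and Emcn was at 0.664 ± 0.0527 FPKM with siSox9 and 1.08 ± 0.0718 FPKM with siNC (SD, n = 3 each), without overlap. Pecam1 was also lower without overlap (0.570 FPKM with siSox9 and 0.677 with siNC). Kdr went the other way (0.509 and 0.418 FPKM) and Cdh5 was lower (1.16 and 1.37 FPKM), both with overlap.

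The short sequence that NRF2 and its MAF partner read is shown for the members in which it was found, since the gene symbols do not use it. The antioxidant response element core was searched as TGACNNNGC on both strands, in RefSeq promoter windows of GRCm38.p6 that run from 250 bases before to 50 bases after a gene's start. Windows were listed for 8 members, 13 windows in all, as some genes have several starts, and Gclc and Hmox1 had none. The core was present in 4 of the 13 windows, 1 each for Nfe2l2, Gclm, Txnrd1 and Srxn1, and in 12.4% of the 32851 windows of all genes. Txnrd1 had 3 windows, of which 1 held the core, and the start of that window lies inside the span of the gene. Each match is printed on the strand of its gene, with the 9 bases of the core in capitals.
Nfe2l2, core begins 240 bases before the start, chr2:75704887-75704911, - strand: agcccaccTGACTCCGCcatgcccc
Gclm, core begins 134 bases before the start, chr3:122245415-122245439, + strand: tcccgggcGCACCGTCAactctcac
Txnrd1, core begins 92 bases before the start, chr10:82859106-82859130, + strand: ggatttttGCTTTGTCAttctgaca
Srxn1, core begins 28 bases after the start, chr2:152105544-152105568, + strand: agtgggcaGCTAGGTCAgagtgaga

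In Gclm, Txnrd1 and Srxn1 the core lay on the strand opposite to the gene, and in Nfe2l2 on the gene's own strand. The Srxn1 window also held 2 matches to the AP-1 element TGANTCA, a related sequence that none of the 4 cores overlapped and that 7.81% of all windows held. The match that begins 45 bases before the start is TGAGTCA followed by GC. It differs from the core as searched only in the base after TGA, which is G and not C. Sites of that form were not counted as cores. Binding of NRF2 to any of these matches was not tested. No core was found in the windows of Keap1, Slc7a11, Gpx4 and Nqo1. Elements farther from the start, where several of these genes are known to carry them, lie outside these windows.

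Across the 10 genes, 5 rose after siSox9 (Nqo1, Txnrd1, Nfe2l2, Hmox1 and Slc7a11), Keap1 fell, and Srxn1, Gclm, Gclc and Gpx4 did not pass the test. The test was limma on log2(FPKM + 1) for 12009 genes whose mean reached 1 FPKM, with a Benjamini-Hochberg adjusted p under 0.05, and all 10 members were above that minimum. The 6 members that passed compare with 30.4% of all genes tested, and the 5 that rose with 12.8%. The median log2 fold change was 0.19 over the members and -0.01 over all genes tested. Of all genes tested, 1532 were higher and 2118 lower with siSox9. When values were centred on the median of each library, 1959 (16.3%) were higher and 1765 (14.7%) lower, and 7 members were higher and 1 lower. In 7 members each siSox9 library was above each siNC library, which held for 20.2% of all genes, and in Keap1 each was below, which held for 26.1%. Either way, 46.3% of all genes had groups that did not overlap. Mitochondrially encoded genes held 8.05, 8.36 and 8.76% of the summed FPKM in siSox9 replicates 1 to 3 and 7.20, 7.17 and 6.98% in siNC replicates 1 to 3, without overlap. The part of this share, of Cdh16 and of the endothelial and fibroblast markers in the members' values was not tested. With 3 libraries against 3 an exact permutation test of a single gene cannot give a p under 0.1. The libraries are bulk RNA, in which a change in how many cells express a gene and a change in RNA per cell cannot be told apart.

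**Figure D1:**
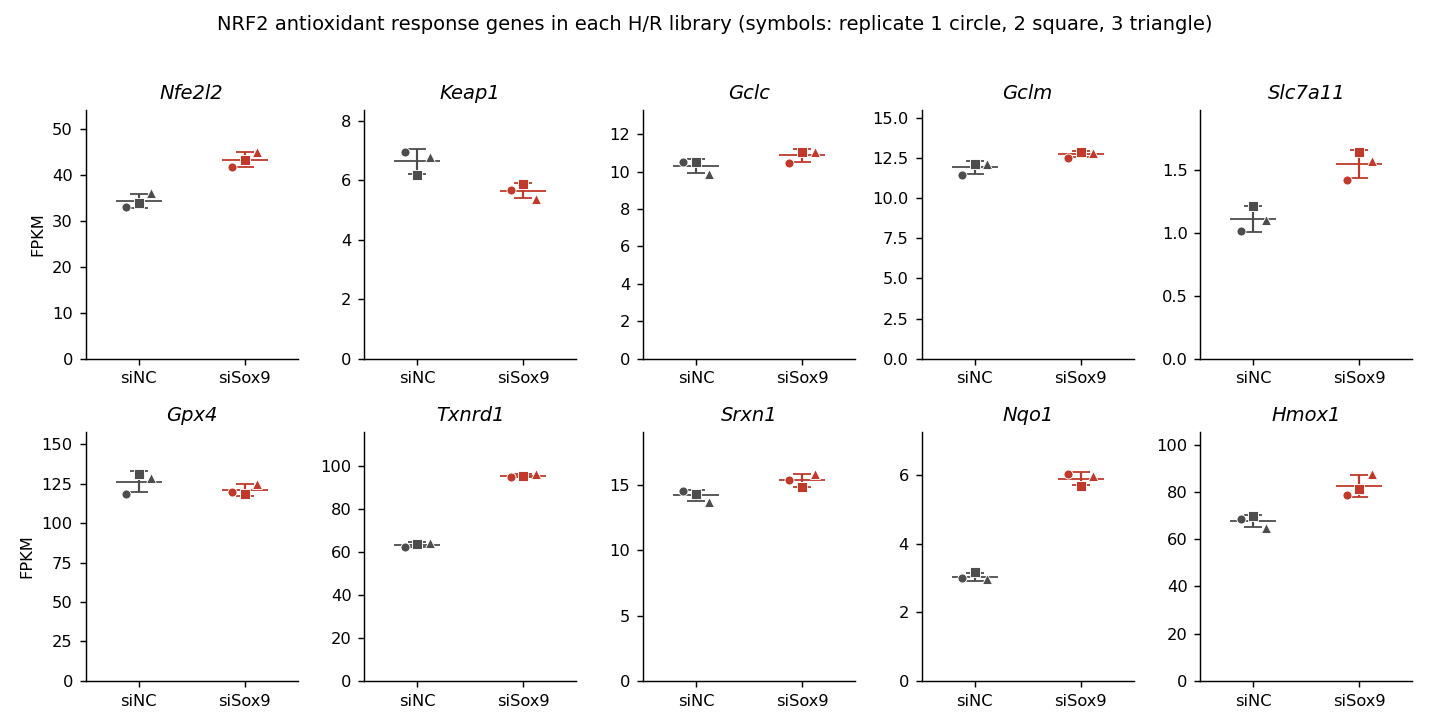
FPKM of the 10 genes in each library, with siNC in grey and siSox9 in red, 1 panel and 1 scale per gene, and every axis starting at 0. Symbols mark replicates 1 to 3, and the horizontal line with its bar is the mean ± SD (n = 3); the groups are apart in 8 panels and overlap in those of Gclc and Gpx4.

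Nfe2l2, the gene of NRF2 itself (ENSMUSG00000015839, chr2:75675513-75704641, - strand, GRCm38), had 41.7, 43.1 and 45.0 FPKM in siSox9 replicates 1 to 3 and 33.0, 33.9 and 36.0 FPKM in siNC replicates 1 to 3. The lowest siSox9 library lay above the highest siNC library. Nfe2l2 rose 1.26-fold ± 0.043 (standard error, SE, of the ratio of mean FPKM), with a log2 fold change of 0.33 (SE 0.04, from limma with adjusted p = 0.00183). These values rest on 3108 to 4153 reads per library. NRF2 is controlled largely through its protein, which RNA-Seq does not measure.

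Keap1, the inhibitor of NRF2 (ENSMUSG00000003308, chr9:21229730-21239361, - strand), moved the opposite way. It had 5.66, 5.88 and 5.38 FPKM with siSox9 and 6.96, 6.17 and 6.79 FPKM with siNC. The groups did not overlap, though siNC replicate 2 was close to siSox9 replicate 2. Its log2 fold change was -0.20 (SE 0.05; limma, adjusted p = 0.0269). This call did not hold under 7 of 14 alternatives: limma's adjusted p was 0.0566 with the replicate number as a block, 0.113 after rescaling to equal sums and 0.0756 with no filter, and it was 0.0700 without siSox9 replicate 1, 0.0794 without siSox9 replicate 3, 0.0642 without siNC replicate 1 and 0.0854 without siNC replicate 3. A stretch of 510 exonic bases of Keap1 is shared with the antisense gene Gm16754, which had at most 0.268 FPKM in any library.

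Within a library, the ratio of Nfe2l2 to Keap1 does not depend on how libraries are scaled. It was 7.38, 7.32 and 8.37 with siSox9 and 4.74, 5.50 and 5.30 with siNC. Each siSox9 library had more Nfe2l2 RNA per Keap1 RNA than each siNC library (7.69 ± 0.588 against 5.18 ± 0.392, SD, n = 3 each), and an exact two-sided permutation test gave p = 0.1, the smallest p this design allows.

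The NAD(P)H quinone dehydrogenase gene Nqo1 and the thioredoxin reductase gene Txnrd1 had the largest changes of the 10. NQO1 reduces quinones to hydroquinones and is the usual readout gene of NRF2 activity. Nqo1 (ENSMUSG00000003849, chr8:107388225-107403206, - strand) had 6.03, 5.68 and 5.96 FPKM with siSox9 and 2.98, 3.17 and 2.95 FPKM with siNC. The groups were far apart compared with their spread, and the mean FPKM rose 1.94-fold ± 0.056 (SE). On the log2(FPKM + 1) scale, which understates the change of a gene at this level, the log2 fold change was 0.77 (SE 0.04, from limma with adjusted p = 8.85e-05), which placed Nqo1 26th from the top among the 12009 genes. Nqo1 was also the member with the fewest reads, 221 to 241 per library with siSox9 and 114 to 119 with siNC. With limma voom on those reads its log2 fold change was 0.95 (adjusted p = 7.1e-06).

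Txnrd1 codes for the cytosolic enzyme that uses NADPH to keep thioredoxin reduced. Txnrd1 (ENSMUSG00000020250, chr10:82833951-82897712, + strand) had 94.8, 95.2 and 96.4 FPKM with siSox9 and 62.1, 63.8 and 64.1 FPKM with siNC. The lowest siSox9 library lay far above the highest siNC library compared with the spread in either group. Txnrd1 rose 1.51-fold ± 0.017 (SE), with a log2 fold change of 0.58 (SE 0.03; limma, adjusted p = 5.94e-05), and ranked 79th from the top of all genes tested. It was the most deeply read member, with 10911 to 17284 reads per library.

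Srxn1, the other gene of the thioredoxin arm, codes for sulfiredoxin, which repairs overoxidized peroxiredoxins. Srxn1 (ENSMUSG00000032802, chr2:152105516-152111376, + strand) had 15.4, 14.9 and 15.9 FPKM with siSox9 and 14.6, 14.3 and 13.7 FPKM with siNC. The groups did not overlap, but the gap between the nearest libraries was smaller than the spread within either group. Its log2 fold change of 0.11, with a 95% interval from 0.02 to 0.20, did not pass the test over all genes (limma adjusted p = 0.074). With median-centred values it did, with limma adjusted p = 0.0357.

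Txnrd1 and Gpx4 are the 2 members that code for selenoproteins, in which a UGA codon inside the reading frame is read as selenocysteine. Their selenocysteine codons are shown because the enzymes share this residue while Txnrd1 rose and Gpx4 did not pass. The codon, with 12 bases on each side, is in capitals in the GENCODE M21 transcripts, read as DNA. For each gene the transcript with the longest coding sequence was used, so the residue numbers apply to that form only.
Txnrd1, chr10:82896037-82896039 for the codon, residue 612 of 613: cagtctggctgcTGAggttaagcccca
Gpx4, chr10:80054737-80054739 for the codon, residue 129 of 253: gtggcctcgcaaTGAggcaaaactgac

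GPX4 uses glutathione to reduce lipid peroxides in membranes and is the main barrier to ferroptosis, a form of cell death by lipid peroxidation. Gpx4 (ENSMUSG00000075706, chr10:80047166-80056439, + strand) was the most abundant member, with 119.6, 118.3 and 125.1 FPKM with siSox9 and 118.8, 131.4 and 129.0 FPKM with siNC. The groups overlapped. Its log2 fold change was -0.06, with a 95% interval from -0.17 to 0.04 (limma adjusted p = 0.338). Of its 50-base stretches, 34.7% also occur in transcripts of other genes, mostly of the pseudogene Gpx4-ps2, so its level is less certain than that of the other members. The ratio of Txnrd1 to Gpx4 within a library was 0.793, 0.805 and 0.771 with siSox9 and 0.522, 0.485 and 0.497 with siNC, with no overlap (p = 0.1 by exact permutation, two-sided, again the lowest possible).

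**Figure D2:**
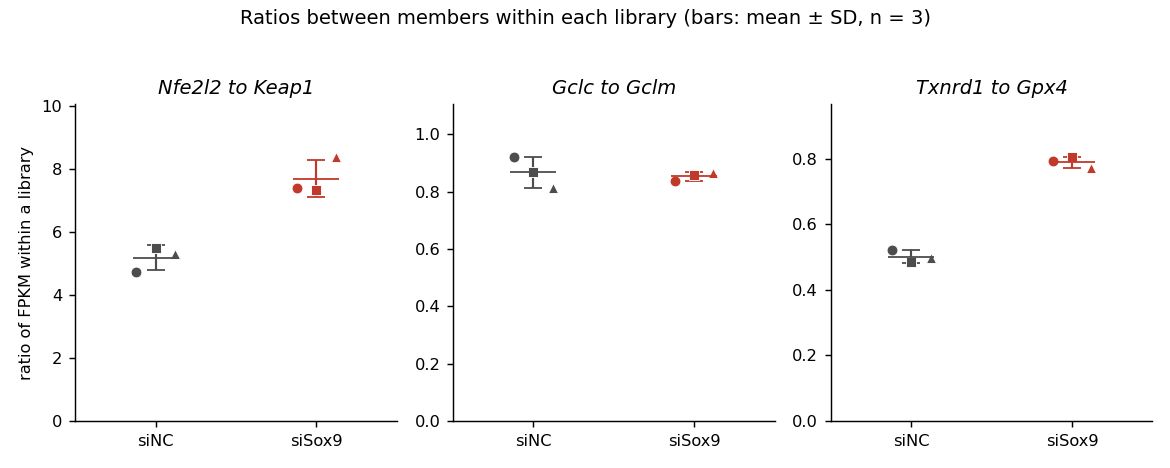
Ratios of FPKM between pairs of members within each library, for Nfe2l2 to Keap1, Gclc to Gclm and Txnrd1 to Gpx4, with axes from 0; symbols mark replicates 1 to 3 and bars the mean ± SD (n = 3). The ratios of Nfe2l2 to Keap1 and of Txnrd1 to Gpx4 are higher in every siSox9 library than in any siNC library, and those of Gclc to Gclm overlap.

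Neither subunit of the first enzyme of glutathione synthesis passed the test. Gclc and Gclm code for the catalytic and the modifier subunit of glutamate-cysteine ligase, the rate-limiting enzyme of glutathione synthesis. Gclc (ENSMUSG00000032350, chr9:77754535-77794485, + strand) had 10.5, 11.1 and 11.1 FPKM with siSox9 and 10.5, 10.5 and 9.87 FPKM with siNC, so that the groups overlapped. Its log2 fold change was 0.07, with a 95% interval from -0.03 to 0.16 (limma adjusted p = 0.241). Gclm (ENSMUSG00000028124, chr3:122245557-122270732, + strand) had 12.5, 12.9 and 12.8 FPKM with siSox9 and 11.5, 12.1 and 12.2 FPKM with siNC. All 3 siSox9 libraries were above all siNC libraries, with a log2 fold change of 0.09 and a 95% interval from 0.01 to 0.17 that did not pass after adjustment (limma adjusted p = 0.0971). Its exons share 540 bases with Gm6061 on the same strand and with the antisense gene Gm17494, which had at most 0.11 FPKM. With median-centred values Gclm passed, with limma adjusted p = 0.0484. These intervals leave out changes as large as that of Nqo1 for both subunits. The ratio of Gclc to Gclm was 0.853 ± 0.0147 with siSox9 and 0.867 ± 0.0537 with siNC (SD, n = 3 each; exact permutation p = 0.7).

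Slc7a11, the cystine importer xCT that supplies cysteine for glutathione (ENSMUSG00000027737, chr3:49892526-50443614, - strand), was the least abundant member. It had 1.42, 1.64 and 1.57 FPKM with siSox9 and 1.01, 1.21 and 1.10 FPKM with siNC, without overlap. The mean FPKM rose 1.39-fold ± 0.094 (SE), with a log2 fold change of 0.27 on the log2(FPKM + 1) scale (SE 0.07; limma, adjusted p = 0.0267). As its exons span 13922 bases, these low FPKM values rest on 509 to 581 reads per library with siSox9 and 350 to 408 with siNC, and limma voom on the reads gave a log2 fold change of 0.47 (adjusted p = 0.000343). The call was lost with no filter (limma adjusted p = 0.0802), and adjusted p from limma was 0.0945 without siSox9 replicate 2, 0.0737 without siSox9 replicate 3, 0.0660 without siNC replicate 1 and 0.0711 without siNC replicate 3.

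Hmox1 codes for heme oxygenase-1, which breaks heme down to biliverdin, iron and carbon monoxide and is also induced by hypoxia and by heme itself. Hmox1 (ENSMUSG00000005413, chr8:75093621-75100589, + strand) had 78.6, 81.1 and 87.7 FPKM with siSox9 and 68.7, 69.8 and 64.9 FPKM with siNC. The groups did not overlap, and siSox9 replicate 3 was the highest. Hmox1 rose 1.22-fold ± 0.048 (SE), with a log2 fold change of 0.28 (SE 0.05; limma, adjusted p = 0.00564). Macrophages also express Hmox1 strongly, and 4 of 6 macrophage markers had a mean of at least 1 FPKM here. The summed FPKM of these 6 genes was 103.3 to 113.6 with siSox9 and 92.2 to 98.7 with siNC, most of it from Lyz2, which rose (83.4 FPKM with siSox9 and 71.9 with siNC, limma adjusted p = 0.0175). Csf1r, Adgre1 and Cd68 did not pass, and Ptprc (0.653 and 0.724 FPKM) and Marco (0.0344 and 0.0141 FPKM) were under 1 FPKM, and none of the 6 was at 0 in every library. The part of macrophages in the Hmox1 value was not tested.

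**Figure D3:**
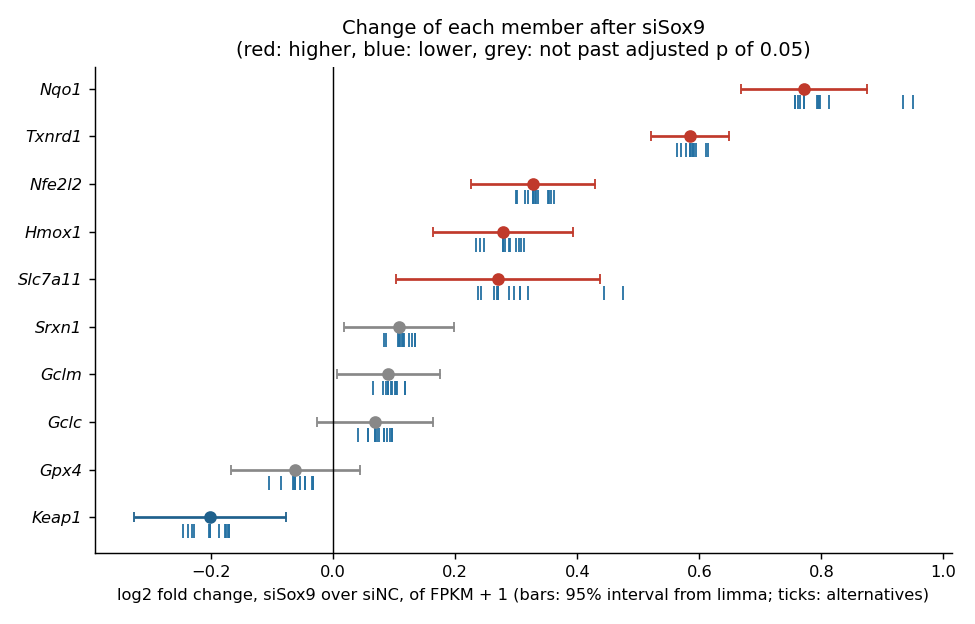
Log2 fold change of FPKM + 1 for each member, siSox9 over siNC, from the limma fit, with bars for the 95% interval and small ticks for the value under each alternative. Red is higher, blue is lower and grey did not pass, and every tick of a gene lies on the same side of 0 as its main value.

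In level, the 10 genes spanned 114-fold in the control libraries. Their order with siNC was Gpx4, Hmox1, Txnrd1, Nfe2l2, Srxn1, Gclm, Gclc, Keap1, Nqo1 and Slc7a11, and no neighbours in this order overlapped, though the lowest Hmox1 value (64.9 FPKM) was close to the highest of Txnrd1 (64.1 FPKM). With siSox9, Txnrd1 stood above Hmox1, again without overlap. Nqo1 also moved past Keap1, but these 2 genes overlapped with siSox9 (5.68 to 6.03 FPKM against 5.38 to 5.88 FPKM).

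**Figure D4:**
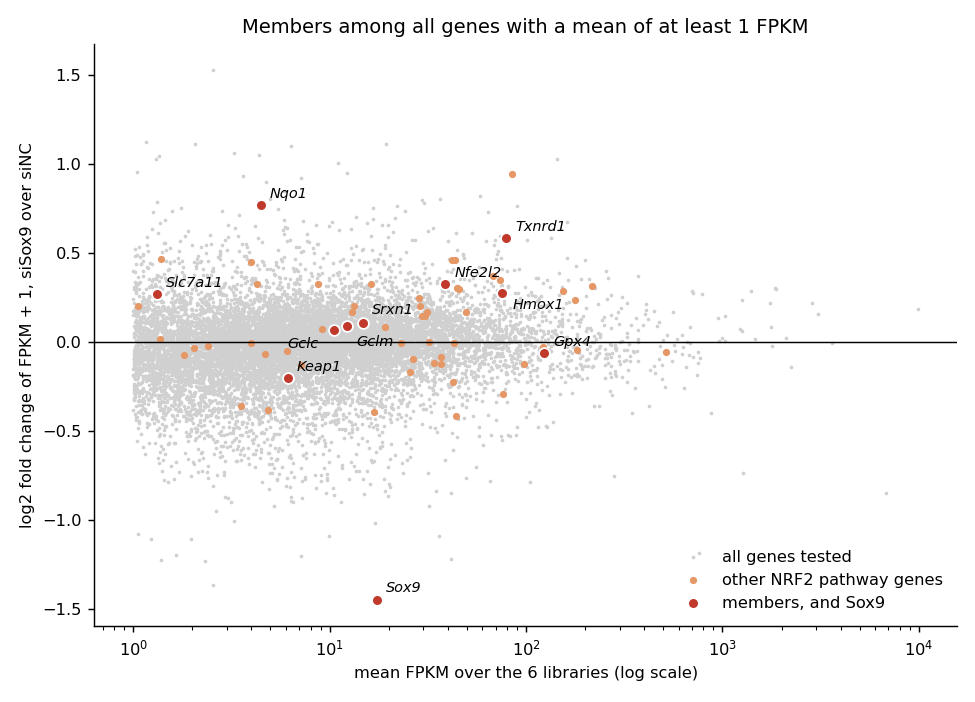
Mean FPKM over the 6 libraries (log scale) against the log2 fold change of FPKM + 1, siSox9 over siNC, for the 12009 genes tested in grey, the other NRF2 pathway genes in orange and the members with Sox9 in red. Nqo1 ranks 26th and Txnrd1 79th from the top, while Sox9 is the lowest of all.

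Beyond the 10 members, a list of 60 further genes of the NRF2 pathway was followed, of which 52 had a mean of at least 1 FPKM. Of these 52, 23 rose and 7 fell after siSox9, which compares with 12.8% and 17.6% of all genes tested, and 22 did not pass. Their median log2 fold change was 0.04. The list was chosen with earlier results of these data known, so these counts describe its genes and are no test of the pathway.

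NADPH is the reducing power that thioredoxin reductase, glutathione reductase and NQO1 all draw on. Of 6 genes for its supply, 5 rose and none fell, so that 83.3% passed, beside 30.4% of all genes tested. Their median log2 fold change was 0.25. The change of Taldo1, the transaldolase of the pentose phosphate pathway, was larger on the log2(FPKM + 1) scale than that of any member, though in mean FPKM Nqo1 also rose 1.94-fold. It had 110.0, 111.4 and 116.1 FPKM with siSox9 and 55.2, 57.9 and 60.9 FPKM with siNC, a 1.94-fold ± 0.063 rise (SE; log2 fold change 0.94, limma adjusted p = 5.94e-05). Idh1, the cytosolic isocitrate dehydrogenase, rose 1.29-fold (limma adjusted p = 0.00367). G6pdx and Pgd, the enzymes of the oxidative branch, and Me1, named here after their values were seen, were the others that rose, with log2 fold changes of 0.20, 0.31 and 0.17. Tkt, also named after its values were seen, had a log2 fold change of -0.08 and did not pass (limma adjusted p = 0.0914). Of Taldo1, 6.67% of the 50-base stretches also occur in Gm17823. Part of Me1, 22.9% of its 50-base stretches, also occurs in other genes.

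Of 7 thioredoxin and peroxiredoxin genes, 5 rose and none fell, so that 71.4% passed, beside 30.4% of all genes tested. Their median log2 fold change was 0.24. Prdx6, a peroxiredoxin that also acts on phospholipid peroxides, had 75.0, 75.8 and 79.5 FPKM with siSox9 and 56.8, 59.9 and 61.0 with siNC (log2 fold change 0.37, limma adjusted p = 0.000675). Txnip, an inhibitor of thioredoxin rather than part of the defense, rose as well, by a log2 fold change of 0.30 (limma adjusted p = 0.000927). Thioredoxin itself, Txn1, had the highest mean of them over the 6 libraries and did not pass (179.5 ± 7.13 FPKM with siSox9 and 186 ± 18.8 FPKM with siNC, SD, n = 3 each; limma adjusted p = 0.667). Without siNC replicate 1 its log2 fold change was -0.13 and passed (limma adjusted p = 0.0469).

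Among 10 tested regulators, 3 rose and 1 fell, so that 40% passed, beside 30.4% of all genes tested. Their median log2 fold change was -0.03. The 6 that did not pass, named here after their values were seen, were Nfe2l3, Bach1, Maff, Mafg, Rbx1 and Btrc. Nfe2l1, the gene of NRF1, a relative of NRF2 that controls proteasome genes, rose 1.28-fold (limma adjusted p = 0.00234). Mafk, a small MAF partner, rose 1.27-fold (limma adjusted p = 0.00381). Sqstm1, the gene of the p62 adaptor that can draw KEAP1 into autophagy, had 240.8, 246.1 and 236.9 FPKM with siSox9 and 192.4, 195.5 and 194.1 FPKM with siNC (log2 fold change 0.31, limma adjusted p = 0.000397). The gene that fell was Cul3, named for this reason after its values were seen, which codes for the scaffold of the ligase that KEAP1 serves. Cul3 had 24.4, 24.0 and 24.1 FPKM with siSox9 and 27.7, 27.1 and 27.3 FPKM with siNC (log2 fold change -0.17, limma adjusted p = 0.00406). Cul3 no longer passed after rescaling to equal sums (limma adjusted p = 0.0818).

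Of 13 tested genes for conjugation, reduction and export, 7 rose and 1 fell, so that 61.5% passed, beside 30.4% of all genes tested. The gene that fell was Ephx1, named here after its values were seen (log2 fold change -0.12, limma adjusted p = 0.0225). Ephx1 no longer passed after rescaling to equal sums (limma adjusted p = 0.261). Gstp1, Cbr1, Cbr3, Abcc3 and Osgin1, also named after their values were seen, did not pass. Gsta3, a glutathione transferase, went from 1.01 ± 0.20 FPKM with siNC to 1.77 ± 0.0315 FPKM with siSox9 (SD, n = 3 each; limma adjusted p = 0.00657). Akr1b8, an aldo-keto reductase, rose 1.39-fold ± 0.082 (SE; limma adjusted p = 0.0026). Abcc4, an exporter of organic anions and the most abundant gene of this group, rose 1.22-fold ± 0.016 (SE; limma adjusted p = 0.000556).

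The remaining roles were mixed. Of 8 tested glutathione genes, 2 rose and 3 fell, so that 62.5% passed, beside 30.4% of all genes tested. Their median log2 fold change was -0.08. Gsr and Glrx are named here after their values were seen. Gsr rose, with a log2 fold change of 0.17 (limma adjusted p = 0.0471). This call was lost with no filter (limma adjusted p = 0.123), with the replicate block and when any library was left out. Glrx fell, with a log2 fold change of -0.36 (limma adjusted p = 0.00164). Gss, glutathione synthetase, which completes glutathione and is named here after its values were seen, had 4.79, 4.60 and 5.20 FPKM with siSox9 and 3.83, 3.67 and 3.54 FPKM with siNC (log2 fold change 0.32, limma adjusted p = 0.0041). Gpx3, the secreted glutathione peroxidase made by proximal tubule cells, had 38.0, 36.9 and 37.2 FPKM with siSox9 and 53.4, 48.3 and 49.1 FPKM with siNC (log2 fold change -0.42, limma adjusted p = 0.000618). Mgst1, a membrane-bound glutathione transferase, had a log2 fold change of -0.38 (limma adjusted p = 0.00777), and Gpx1, the most abundant, had one of -0.03 and did not pass (limma adjusted p = 0.554). Of 8 heme and iron genes, 1 rose and 2 fell, with a median of -0.03. That is 37.5% passing, beside 30.4% of all genes tested. Slc48a1, a transporter that brings heme out of lysosomes, rose 1.39-fold ± 0.021 (SE; limma adjusted p = 0.000116). Fech, the enzyme that inserts iron into heme, had 14.5 ± 0.102 FPKM with siSox9 and 19.3 ± 1.06 FPKM with siNC (SD, n = 3 each; limma adjusted p = 0.000782). Fth1, the ferritin heavy chain, was at 508 and 529 FPKM and did not pass (limma adjusted p = 0.287).

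**Figure D5:**
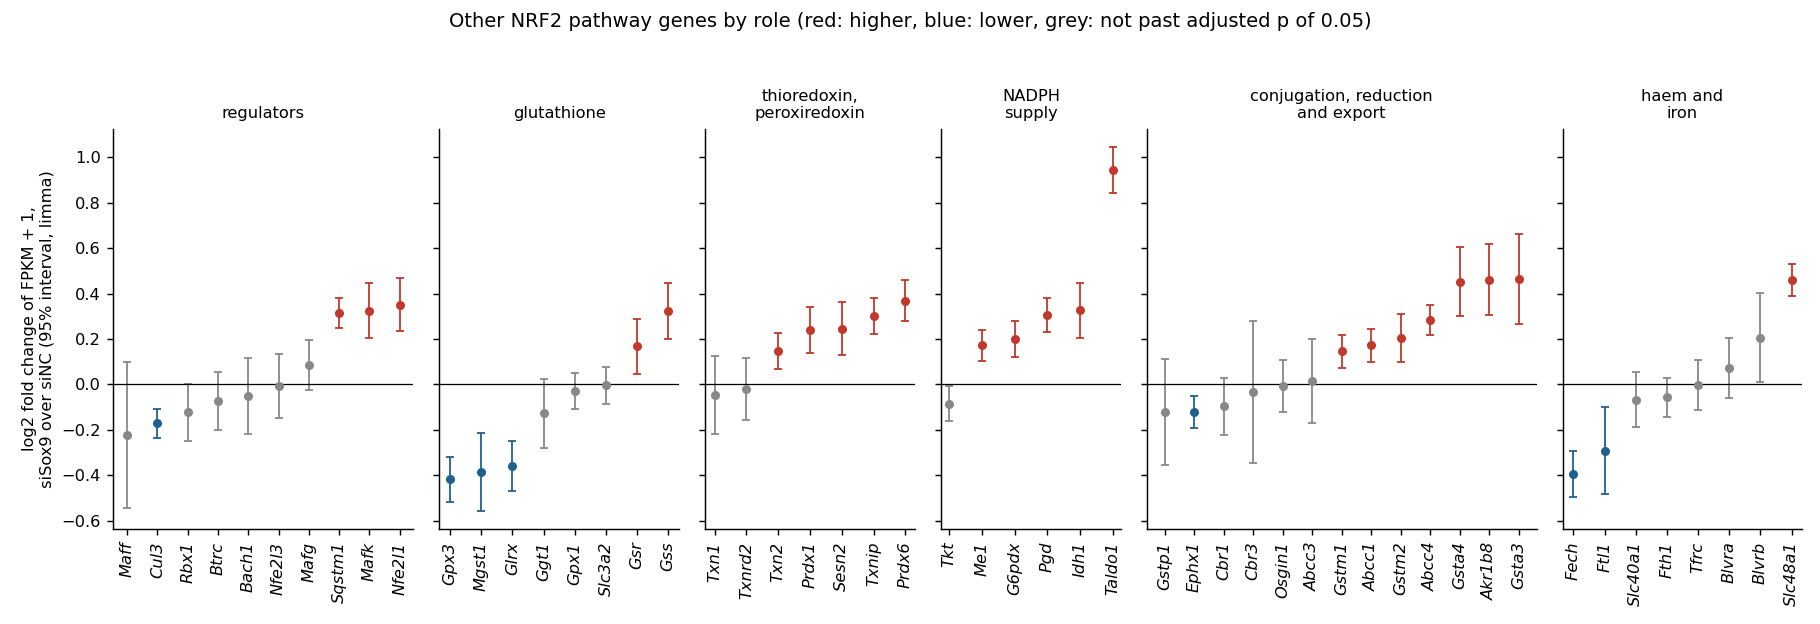
Log2 fold change of FPKM + 1, siSox9 over siNC, of the 52 other NRF2 pathway genes tested, grouped by role and ordered by value within each role, with 95% intervals from limma. Red is higher (23 genes), blue is lower (7 genes) and grey did not pass (22 genes).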

How the data were processed

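RNA-Seq of 6 libraries, 3 with siSox9 and 3 with siNC, was used. The deposited values are FPKM, made by the authors for each gene in each library. The submitters' processing notes name HISAT2 2.1.0, Bowtie2 2.2.3, TopHat2 and the build mm9, without roles; the positions of all 10 members in the table are those of GENCODE M21 in GRCm38, as are 93.3% of those of the 30246 genes found there. The counting tool is not given in the sources used here. The columns without siNC in their names were taken as siSox9, the only other siRNA in the labels.

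Groups were compared by limma 3.58.1 under R 4.3.3 (lmFit and trended eBayes), with log2(FPKM + 1) of genes whose mean reached 1 FPKM, unpaired as in the study's statistics, with Benjamini-Hochberg adjustment over all genes tested. This was tested on simulated data. FPKM are not counts; reads were recovered with M21 exon lengths from the value of 1 read (27943 genes whole in all libraries, within 0.02 reads), and limma voom on them was an alternative. Within groups, mean chi-square of reads between libraries was 1.91 to 7.36, where sampling noise gives 1, so no library was a copy. Shared sequence was counted as 50-base stretches of M21 transcripts. Intervals are at 95%. Other steps ran in Python 3.11.15 with numpy 2.4.6, pandas 2.3.3 and matplotlib 3.10.9.

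The members and lists were chosen with earlier results of these data known. Named are the 10 members, Sox9 and, per role of the other pathway list, the 2 largest changes that passed and the most abundant gene; others are said to be named after their values were seen.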

Additional observations from a re-analysis of the deposited data

How the results depend on the processing

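Directions of all 10 members and Sox9 held under each alternative run, and the calls of Nqo1, Txnrd1, Nfe2l2, Hmox1 and Sox9 held under each one in which they were tested; with a minimum of 5 FPKM, Nqo1 and Slc7a11 were not tested. Keap1 no longer passed with no filter or the replicate block (log2 fold change -0.20 in both) or after rescaling to equal sums, which is the TPM setting (-0.18), and it ranged from -0.25 to -0.17 when a library was left out. Slc7a11 no longer passed with no filter (0.27), and ranged from 0.24 to 0.31 when a library was left out. Gclm (0.12) and Srxn1 (0.13) passed with median-centred values. From 4 to 8 members passed over all alternatives, in which 9.6% to 36.1% of all genes tested did, and from 25 to 32 of the other pathway genes. Over all genes, 2424 to 3654 passed when a library was left out, the fewest without siSox9 replicate 2. The replicate block left 3262 genes past the threshold; same-numbered libraries deviated together with correlations of -0.0504 to 0.0649 only, so the numbers were not taken as pairs, and the block changed no other call among the members and Sox9. Leaving out a library leaves fewer samples and the voom fit covers 10474 genes with whole reads; other causes were not tested. Depth limits Nqo1 most among the members, and none had under 114 reads in a library.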

Other observations

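The 8 genes of the wider pathway list that were under 1 FPKM were outside the comparison above. Gsta1, a glutathione transferase, had 17, 11 and 16 reads in siSox9 replicates 1 to 3 and 2, 3 and 6 reads in siNC replicates 1 to 3, and each siSox9 library was above each siNC library. Its neighbour Gsta2 had 4, 6 and 4 reads against 0, 0 and 3, but 90.5% of the 50-base stretches of Gsta1 also occur in related genes such as Gsta2, so reads cannot be assigned firmly between them. Bach2, a repressor that competes with NRF2 for its elements, had 67, 92 and 68 reads in the siSox9 libraries and 136, 145 and 121 in those of siNC, again without overlap. Bach1, a tested gene of the same list, was higher in level, at 5.97 FPKM with siSox9 and 6.22 FPKM with siNC. It did not pass (log2 fold change -0.05, limma adjusted p = 0.621). With no filter on low values, limma gave adjusted p = 0.0249 for Gsta1, 0.0997 for Gsta2 and 0.0438 for Bach2. These genes were named after their values were seen.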
